A study of Mus musculus with 4 samples.

Results

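The connexin genes Gja1 and Gja5 were bright on both arrays of cultured induced regulatory T cells (iTreg) and at or near background on both arrays of T cells sorted directly from mice. They were chosen by gene symbol, as every probe that the array's gene table assigns to either gene, and as genes already seen to differ between these arrays. That gave 1 probe for Gja1 and 3 for Gja5, hence 2 of 16590 named genes and 4 of 25697 probes. Since their own values led to the choice, the levels and differences of both genes are given as a description, and no test was made on them.

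Connexins are membrane proteins that assemble into channels. Channels of adjoining cells dock to form gap junctions, through which ions and small molecules such as cyclic AMP pass from cell to cell, and undocked hemichannels can release ATP. Gja1 encodes Cx43, the most widely expressed connexin, which has been described at contacts between T cells and antigen-presenting cells. Gja5 encodes Cx40, best known from the atria and conduction system of the heart and from arterial endothelium. Transfer of cyclic AMP through gap junctions has been described as one way in which regulatory T cells act on other T cells.

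All cells came from male Foxp3-GFP transgenic mice (B6.Cg-Foxp3tm2Tch/J), in which green fluorescent protein (GFP) marks cells that express Foxp3, the lineage-defining factor of regulatory T cells. Vitamin C iTreg and conventional iTreg were both grown from sorted CD4+ GFP- CD44 low T cells. Antibodies to CD3 and CD28 (1 µg/ml each), 15 ng/ml IL-2 and 10 ng/ml TGF-beta were present for 5 to 6 days, with vitamin C at 10 µg/ml in the first group and none in the second, and GFP+ CD25+ cells were re-sorted. Natural Treg (CD4+ CD8- GFP+) and naive CD4 T cells (CD4+ CD8- GFP- CD44 low) were sorted from lymph node and spleen without culture. Each group had 1 array, so every difference describes a pair of arrays and has no replicate check. The age of the mice, and whether mice were pooled, are not given in the sources used here.

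On each array 10204 to 11067 probes had a detection p-value under 0.01, the limit used here to call a probe detected. The detection p compares a probe with the array's negative controls. All 7 T cell marker genes with a probe, among them Cd3e and Cd4, were detected on all 4 arrays. Foxp3 was detected on both iTreg arrays and on the natural Treg array, and not on the naive array. Of the other Treg markers read, Il2ra was detected on the same arrays as Foxp3. Ctla4 and Tnfrsf18 were detected on all 4 arrays, and Ikzf2 on the natural Treg array alone.

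The promoter windows of both genes are shown first, since both genes were higher on the iTreg arrays than on the ex vivo arrays and these are the sequences next to their annotated starts. Each runs from 250 bases before the RefSeq gene start to 50 after it, on the plus strand of GRCm38.p6, at chr10:56377050-56377349 for Gja1 and chr3:97032152-97032451 for Gja5. Capitals mark letters that match one of 6 motifs searched on both strands.
Gja1: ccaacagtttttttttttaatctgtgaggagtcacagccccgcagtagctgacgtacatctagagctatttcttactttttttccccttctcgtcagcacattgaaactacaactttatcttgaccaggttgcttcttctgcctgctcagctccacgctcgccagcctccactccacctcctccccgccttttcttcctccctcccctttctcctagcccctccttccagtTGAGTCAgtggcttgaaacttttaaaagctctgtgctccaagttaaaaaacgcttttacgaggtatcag
Gja5: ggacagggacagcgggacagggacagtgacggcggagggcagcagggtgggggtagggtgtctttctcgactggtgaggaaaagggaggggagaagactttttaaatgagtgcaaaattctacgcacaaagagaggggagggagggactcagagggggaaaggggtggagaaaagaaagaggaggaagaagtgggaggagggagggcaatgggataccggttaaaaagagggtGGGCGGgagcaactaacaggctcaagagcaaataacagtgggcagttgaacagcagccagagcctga

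The Gja1 window held 1 match to the AP-1 motif TGANTCA, at positions -19 to -13 from the start. Of all 32851 promoter windows of the same length, 7.81% held that motif. The Gja5 window held 1 match to the GC box GGGCGG, at -17 to -12, a motif found in 35.7% of windows. Neither window held the cyclic AMP response element TGACGTCA (1.79% of windows), TATAAA (13.6%), the T-box half-site AGGTGT (13.7%) or the STAT motif TTCNNNGAA (8.30%). With 1 match in each window, no matches overlapped. The windows thus shared none of the 6 motifs, and a match describes letters only, not binding.

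Gja1 was bright in cultured iTreg and close to background in ex vivo cells. Its probe ILMN_1244291 had a deposited intensity of 13271 on the vitamin C iTreg array, 9823 on conventional iTreg, 198 on natural Treg and 129 on naive CD4. It was detected on the first 3 arrays and not on the naive array, where its detection p was 0.137. The natural Treg value lay just above the lowest intensity detected on that array, 166. After background correction and quantile normalization, its log2 signals were 13.48, 13.18, 6.87 and 5.44 in the same order.

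Gja5 followed the same order of arrays, with a wider gap between the iTreg arrays. Probe ILMN_2691641, which represents the gene here, had an intensity of 8835 on the vitamin C iTreg array, 2031 on conventional iTreg, 133 on natural Treg and 124 on naive CD4. Probe ILMN_2908133 had 4711, 1152, 131 and 116. Both were detected on the iTreg arrays and on neither ex vivo array, where detection p ran from 0.100 to 0.258.

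The third Gja5 probe did not follow the others. ILMN_2678477 had intensities of 165, 119, 112 and 98.4 in the same order, and was detected on none of the arrays. Its lowest detection p, 0.0451, was on the vitamin C iTreg array. In all, 3 of the 4 member probes were detected on at least 1 array. The probes' own sequences were not used here, so which part of the Gja5 transcript each one reads is not given.

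**Figure D1:**
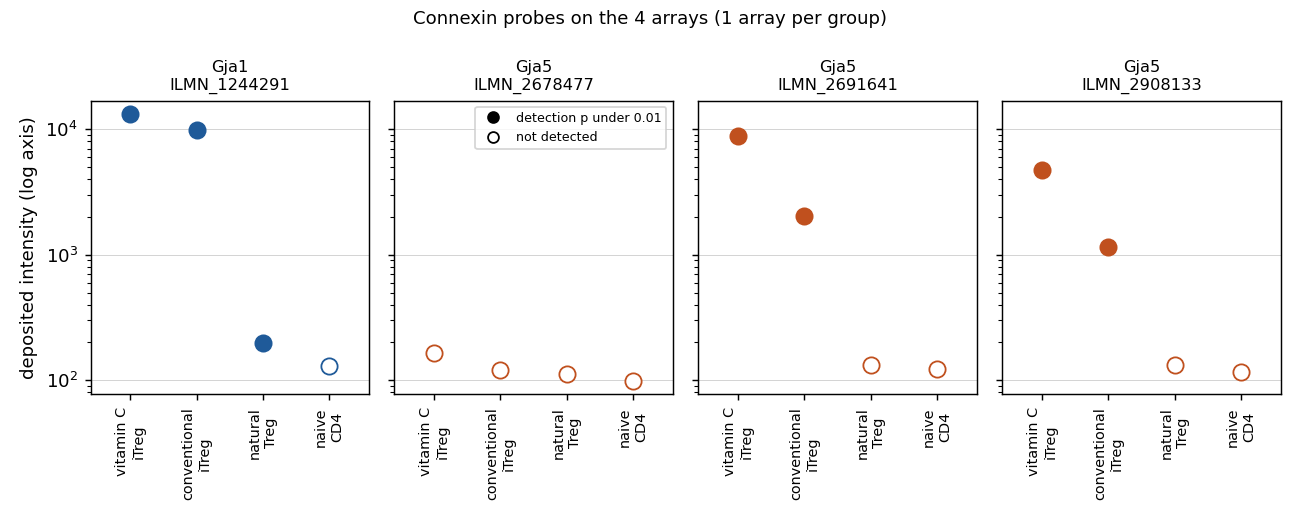
Deposited intensity (log axis) of the 4 Gja1 and Gja5 probes on each array, 1 point per array. Filled points had a detection p under 0.01 and open points did not. Both iTreg points of Gja1 and of 2 Gja5 probes stand at 1152 or higher, whereas all ex vivo points, and every point of the third Gja5 probe, lie at 198 or lower.

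The first comparison, of vitamin C iTreg and conventional iTreg, asked what vitamin C in the culture altered. Gja5 was 4.17-fold higher on the vitamin C array, a log2 difference of 2.06 for ILMN_2691641. Its second detected probe gave 2.07. Gja1 was 1.23-fold higher, a log2 difference of 0.29. Gja1 and Gja5 thus differed in the same direction and by unequal amounts.

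For background, a 2-fold difference was reached upward on the vitamin C array by 0.941% of the 7756 compared genes, and downward by 0.812%. Gja5 had the 3rd highest difference of 7394 genes detected on both arrays, and Gja1 the 778th. Because Gja5 was chosen for this difference, its rank supports nothing further. As a measure of technical spread, different detected probes of 1 gene differed in this comparison with a within-gene SD of 0.149 log2 over 1948 genes. Such probes share RNA, labelling and array, so that SD holds no spread between cultures. Both connexin differences were larger than it, but both genes were chosen on their values, so that supports nothing further.

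Cultured iTreg and natural Treg both carry Foxp3-driven GFP, and their comparison asks how induced and ex vivo regulatory T cells differ. Gja1 was 6.31 log2 higher on the conventional iTreg array than on the natural Treg array, or 79.4-fold. On the vitamin C array it was 6.61 log2 higher than natural Treg, or 97.3-fold. It ranked 6th of all 8031 compared genes with conventional iTreg and 4th of 8034 with vitamin C iTreg, bounds included. Among the 7001 and 6942 genes detected on both arrays it ranked 1st, and it belongs to that set through a natural Treg signal just above the detection limit. Gja1 was chosen for this difference, so its rank supports nothing further. The ratio of deposited intensities, without background correction, was 49.5 for conventional iTreg and 66.9 for vitamin C iTreg over natural Treg.

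Gja5 had no detected value in natural Treg, so its difference is a lower bound, set against the lowest detected signal of that array. It was at least 94.7-fold higher in vitamin C iTreg and at least 22.7-fold higher in conventional iTreg. The second detected probe gave at least 51.0-fold and at least 12.1-fold. For background, 11.7% of 8034 genes were at least 2-fold higher in vitamin C iTreg than in natural Treg, and 11.1% of 8031 were in conventional iTreg. These comparisons share the natural Treg array. Culture with stimulation, IL-2 and TGF-beta cannot be told apart from induced origin, since no array held cultured natural Treg.

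Naive CD4 cells are the precursors of the iTreg, and neither connexin was detected in them. Against naive cells, Gja1 was at least 113.8-fold higher in vitamin C iTreg and at least 92.7-fold higher in conventional iTreg. Gja5 was at least 75.2-fold and at least 18.1-fold higher, and its second detected probe gave at least 40.5-fold and at least 9.61-fold. Of all compared genes, 13.8% were at least 2-fold higher in vitamin C iTreg and 13.2% in conventional iTreg, again against 1 shared array. No array held cells stimulated without TGF-beta, so the effects of activation and of iTreg induction cannot be told apart.

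Natural Treg and naive CD4 were both sorted directly, and both gave low signals for both genes. Gja1 was detected in natural Treg and not in naive cells, at intensities of 198 and 129. Its lower bound was 1.17-fold, short of the 2-fold line that 6.03% of 7582 genes reached upward and 2.03% downward. The measured log2 difference, taken without regard to detection, was 1.43, so a larger difference than the bound is possible. Gja5 was detected on neither array, so its difference is unknown and no fold is given. On bulk arrays, fewer expressing cells and less RNA per cell cannot be told apart.

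**Figure D2:**
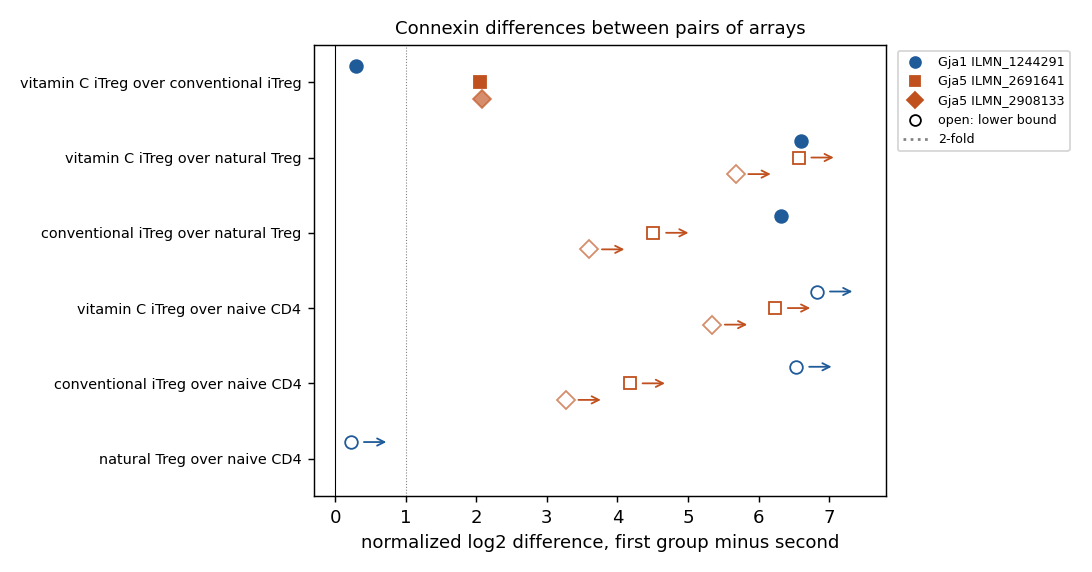
Normalized log2 difference, first group minus second, of Gja1 and of both detected Gja5 probes in the 6 pairs of arrays. Open symbols with arrows are lower bounds, where the second array did not detect the probe, and the dotted line marks 2-fold. Gja1 lies at 0.29 and Gja5 near 2.06 between the iTreg arrays, and all points of iTreg over ex vivo cells lie at 3.27 or higher.

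**Figure D3:**
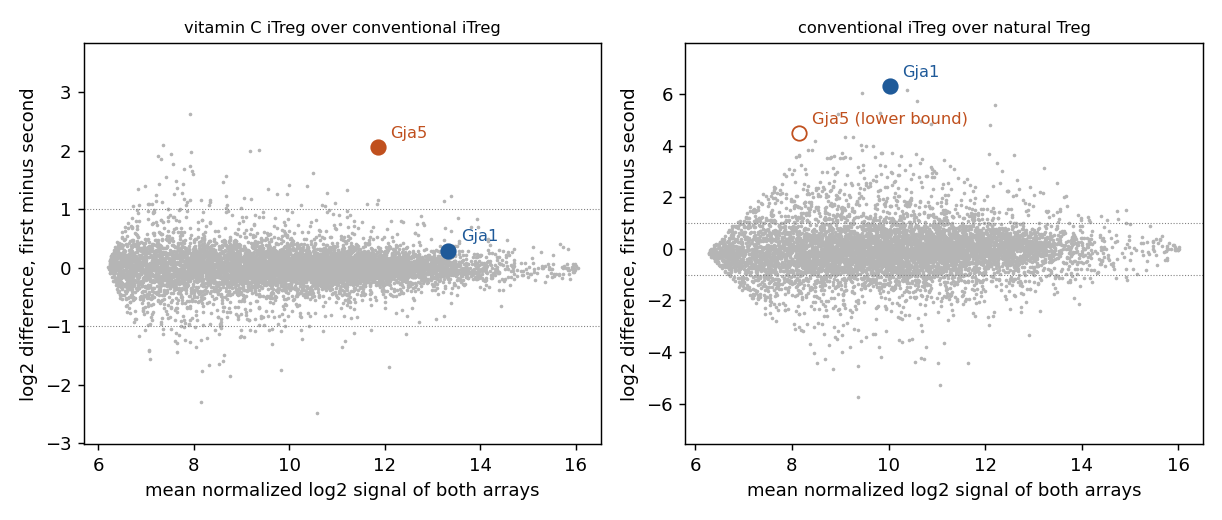
Log2 difference against mean normalized log2 signal for genes detected on both arrays (grey), with Gja1 and Gja5 marked and dotted lines at 2-fold. In vitamin C iTreg over conventional iTreg, Gja5 stands at 2.06 and Gja1 at 0.29. In conventional iTreg over natural Treg, Gja1 stands at 6.31 and Gja5 is drawn as an open point at its bound of 4.51.

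The rest of the gap junction family was mostly undetected. Of 23 connexin and pannexin genes listed, 17 had a probe and 5 were detected on at least 1 array, namely Gja1, Gja5, Gja6, Gjb2 and Panx1. The other 12, namely Gja3, Gja4, Gja10, Gjb1, Gjb5, Gjc1, Gjc3, Gjd2, Gjd3, Gjd4, Panx2 and Panx3, were detected on none, with intensities from 84.8 to 162. Per array, 1 to 5 of the 17 were detected, where 7027 to 7603 of all 16590 named genes were, so most genes were undetected too. Between the iTreg arrays, 5 family genes could be compared. On the vitamin C array 1 of them, Gja5, reached 2-fold upward and 0 downward, where 0.941% and 0.812% of all compared genes did. Their median log2 difference was 0.21, against -0.01 over all genes. That median includes Gja1 and Gja5, which were chosen on their values. Of the rest, Gja6 had -0.04, Panx1 0.09 and Gjb2 a bound of 0.21.

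Gjb2, a connexin of epithelia and the inner ear, ran the other way from Gja1 and Gja5 in iTreg over natural Treg. Its probe ILMN_2999627 had an intensity of 203 on the vitamin C iTreg array, 167 on conventional iTreg, 658 on natural Treg and 127 on naive CD4. It was detected in vitamin C iTreg and natural Treg. The log2 difference of vitamin C iTreg over natural Treg was -2.96, and the bound for conventional iTreg was -3.17. Probe ILMN_1227148, detected in natural Treg alone, went the same way with bounds of -0.82 and -0.85, and the third probe was detected nowhere. Between the iTreg arrays ILMN_2999627 ran the same way as Gja1 and Gja5, with a bound of 0.21 upward on the vitamin C array. Against naive cells, the bound of ILMN_2999627 for vitamin C iTreg was 0, and in natural Treg this probe was at least 2.68 log2 higher. Probe ILMN_1227148 gave a bound of 0.37 in natural Treg over naive CD4, short of 2-fold.

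Panx1 encodes a channel protein that releases ATP and forms no classical gap junctions. It was detected on all 4 arrays, with intensities of 1959 in vitamin C iTreg, 1750 in conventional iTreg, 3069 in natural Treg and 2689 in naive CD4. It was the one family gene detected everywhere, and lower in both iTreg than in the ex vivo cells. Its log2 difference from natural Treg was -1.02 for vitamin C iTreg and -1.11 for conventional iTreg. Its difference from naive CD4 was -0.79 for vitamin C iTreg and -0.88 for conventional iTreg. Between the iTreg arrays it was 0.09. Gja6 stayed near background, with intensities of 206, 196, 154 and 156 in the same order of arrays, and was detected on the iTreg arrays only.

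In iTreg over natural Treg, 5 family genes were compared with either iTreg array, 2 at least 2-fold higher (Gja1 and Gja5) and 2 at least 2-fold lower (Gjb2 and Panx1). The lower calls made up 13% of all genes for vitamin C iTreg and 12% for conventional iTreg. The family median, with the chosen Gja1 and Gja5 included, was 0.10 with vitamin C iTreg and 0.14 with conventional iTreg. Over all genes it was -0.06 in both. Over naive CD4, the same 2 genes were higher of 5 compared in vitamin C iTreg and of 4 in conventional iTreg, and 0 were lower. Of all compared genes, 13.8% were higher and 16% lower in vitamin C iTreg, and 13.2% and 14.7% in conventional iTreg. In natural Treg over naive CD4, 1 of 3 was higher, Gjb2, and 0 lower, where 6.03% and 2.03% of all compared genes were.

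**Figure D4:**
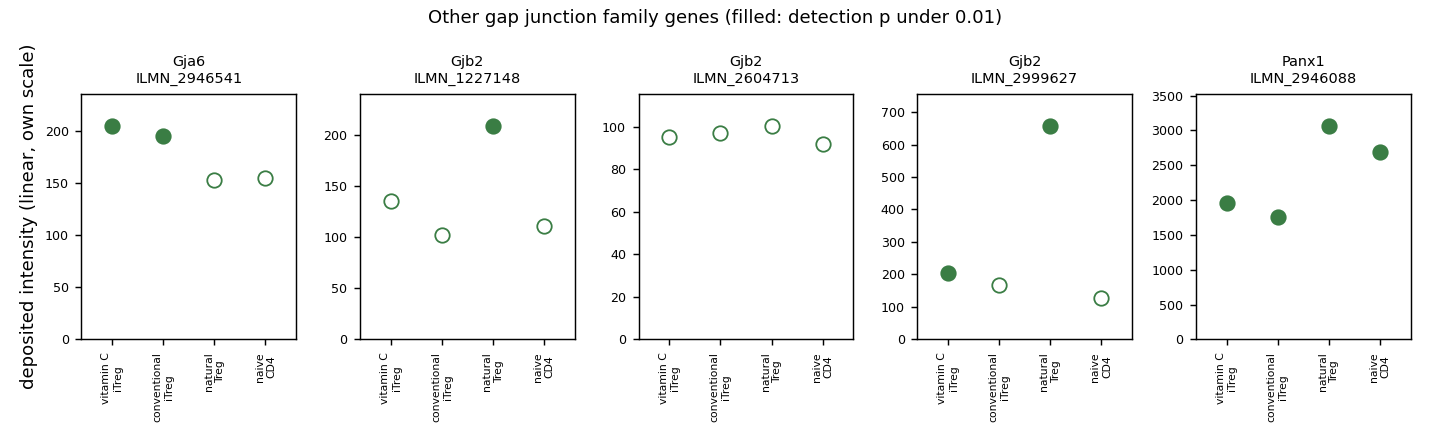
Deposited intensity (linear axis from 0, each panel on its own scale) of the probes of Gja6, Gjb2 and Panx1 on the 4 arrays. Filled points had a detection p under 0.01. Gjb2 probe ILMN_2999627 peaks at 658 in natural Treg, and Panx1 is detected on all arrays at 1750 to 3069.

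Proteins that scaffold, phosphorylate or traffic Cx43 were next described as a list of 30 genes, of which 25 had a probe. Between the iTreg arrays 19 were compared. Their median log2 difference was -0.04, against -0.01 over all genes. On the vitamin C array 0 reached 2-fold upward and 1 downward, where 0.941% and 0.812% of all compared genes did. The 1 was Cdh1, the adhesion molecule E-cadherin, at -1.05. It had an intensity of 255 in vitamin C iTreg and 398 in conventional iTreg.

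In conventional iTreg over natural Treg, 6 of 19 partner genes reached 2-fold upward and 0 downward, where 11.1% and 12% of all compared genes did, with a median of 0.55 against -0.06 over all genes. With vitamin C iTreg in its place, 4 of 19 were higher and 0 lower, where 11.7% and 13% of all compared genes were, and the median was 0.58. Vcl, which encodes the adhesion adaptor vinculin, had intensities of 3661, 3482, 274 and 197 in vitamin C iTreg, conventional iTreg, natural Treg and naive CD4. Its log2 difference was 3.94 for vitamin C iTreg and 3.97 for conventional iTreg over natural Treg. Ctnna1, encoding alpha-catenin, was 2.15 and 2.11 higher in the same pair of comparisons, and Src, a tyrosine kinase that phosphorylates Cx43, was 0.93 and 1.40 higher. Cdh1, detected in the iTreg and not in natural Treg, had bounds of 0.68 and 1.72. Tjp1, the scaffold ZO-1 that binds the tail of Cx43, was detected on neither array.

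Over naive cells, 4 of 19 partner genes were at least 2-fold higher in vitamin C iTreg and 7 of 19 in conventional iTreg. Of all compared genes, 13.8% and 13.2% were higher. In both, 0 partner genes were lower, where 16% and 14.7% of all compared genes were. Their medians were 0.63 and 0.71, against -0.09 and -0.08 over all genes. In natural Treg over naive CD4 the partner list had 2 of 18 higher and 0 lower, where 6.03% and 2.03% of all compared genes were, and a median of -0.01.

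Genes of cyclic AMP signalling, whose product passes through gap junctions, went in both directions. Of 33 listed genes 30 had a probe, and 15 were compared between the iTreg arrays (median -0.08, against -0.01 over all genes). Of these, 0 reached 2-fold either way, where 0.941% of all compared genes did upward and 0.812% downward. In conventional iTreg over natural Treg, 2 of 14 were at least 2-fold higher and 2 lower, and in vitamin C iTreg over natural Treg 3 of 15 were higher and 4 lower. Of all compared genes, 11.1% were higher and 12% lower with conventional iTreg, and 11.7% and 13% with vitamin C iTreg, and 2 of 14 is near these shares. Medians were 0.22 and 0.21, against -0.06 over all genes in both. Over naive CD4, 4 of 17 were higher and 7 lower in vitamin C iTreg, where 13.8% and 16% of all compared genes were, with a median of 0.06. In conventional iTreg 4 of 16 were higher and 4 lower, where 13.2% and 14.7% of all compared genes were, with a median of 0.17. In natural Treg over naive CD4, 3 of 15 were higher and 2 lower, where 6.03% and 2.03% of all compared genes were, with a median of -0.07 against -0.05 over all genes.

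Nt5e, the ectoenzyme CD73 that makes adenosine from AMP, had intensities of 30108 in vitamin C iTreg, 26865 in conventional iTreg, 11727 in natural Treg and 1064 in naive CD4. Adcy6, an adenylyl cyclase that makes cyclic AMP, had the opposite order, 259, 368, 674 and 1309. Its log2 difference was -0.86 in vitamin C over conventional iTreg, and -1.49 in conventional iTreg over natural Treg. Ptger2, a prostaglandin receptor that raises cyclic AMP, was detected on both iTreg arrays and in natural Treg, at 776, 659 and 531, and not in naive cells at 127. Crem, a transcription factor gene of the cyclic AMP response, had 1272, 1145, 549 and 277. Its log2 difference in vitamin C over conventional iTreg was 0.10.

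Transcription factors linked to connexin or heart gene control formed a list of 28, with 24 on the array. Between the iTreg arrays 8 were compared (median -0.13, against -0.01 over all genes). Of these, 0 reached 2-fold either way, where 0.941% of all compared genes did upward and 0.812% downward. Jun, an AP-1 subunit, had intensities of 3390 in vitamin C iTreg, 2464 in conventional iTreg, 465 in natural Treg and 169 in naive CD4, and was not detected on the naive array. In deposited intensity, this order is the one seen for Gja1, and, among others, for Gja5, Nt5e, Ptger2 and Crem. Gja5 was detected on neither ex vivo array, so its order between those arrays is unknown. After normalization Ptger2 was level in conventional iTreg and natural Treg, with a log2 signal of 8.97 in both. A link of Jun to either connexin was not tested. Fos, the AP-1 partner of Jun, did not share this order, with 1115, 643, 2966 and 736. Junb had 5663, 6040, 7255 and 3169.

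Lef1, a factor of naive T cells and of Wnt signalling, ran in reverse, with 337 in vitamin C iTreg, 427 in conventional iTreg, 940 in natural Treg and 2159 in naive CD4. In conventional iTreg over natural Treg, 1 of the 9 compared factors was at least 2-fold higher and 2 were lower, where 11.1% and 12% of all compared genes were, with a median of -0.68. The count of higher factors was at the background share. In vitamin C iTreg over natural Treg the counts were the same, where 11.7% and 13% of all compared genes were higher and lower, and the median was -0.70, against -0.06 over all genes in both. Over naive CD4, 1 of 8 was higher and 1 lower in either iTreg, where 13.2% to 13.8% of all compared genes were higher and 14.7% to 16% lower, with medians of 0.12 in vitamin C iTreg and -0.15 in conventional iTreg. In natural Treg over naive CD4, 3 of 9 were higher and 1 lower, where 6.03% and 2.03% of all compared genes were, with a median of 0.41.

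The genes nearest to each connexin in profile were found by the root mean square distance between log2 signals centred on their mean over the 4 arrays. For Gja1, among 8100 detected named genes, Bdh2 was nearest at a distance of 0.16 log2. Bdh2 encodes a cytosolic dehydrogenase, and had intensities of 16006, 11888, 232 and 128 in vitamin C iTreg, conventional iTreg, natural Treg and naive CD4. Nav1, a neuron navigator that binds microtubules, followed at 0.29, then Speer3 at 0.39, Speer1 at 0.46 and the uridine phosphorylase gene Upp1 at 0.52. The Speer genes belong to a family of close copies, so their probes may read several members. In vitamin C over conventional iTreg, Bdh2, Speer3 and Speer1 were higher, by 0.29, 0.19 and 0.25 log2. Nav1 and Upp1 went the other way, at -0.51 and -0.45.

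For Gja5 the nearest was Gldc, the glycine decarboxylase of the glycine cleavage system, at 0.28. It had intensities of 4346, 1711, 115 and 103 in the same order of arrays. Dab2, an endocytic adaptor, was at 0.47, the fatty acid receptor gene Ffar4 at 0.63, the podoplanin gene Pdpn at 0.67 and Speer1 at 0.70. Gldc, Dab2 and Pdpn were also higher on the vitamin C than on the conventional iTreg array, by 1.33, 1.62 and 0.98 log2. Ffar4 and Speer1 were higher there by 0.37 and 0.25. The iTreg step of Gja5 was part of the profile that picked these genes, so sharing it supports nothing further. Gja1 and Gja5 lay 0.84 apart. These distances used signals without regard to detection. Gja5 and its 5 neighbours were detected on neither ex vivo array. Of the 5 neighbours of Gja1, only Bdh2 was detected ex vivo, in natural Treg. With 4 arrays, and most of each profile set by cultured against ex vivo cells, a small distance describes a shared pattern on these arrays only. Ranked by Pearson's r over the 4 arrays, which ignores the size of the change, 0 of the 5 neighbours of Gja1 and 1 of the 5 of Gja5 stayed.

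**Figure D5:**
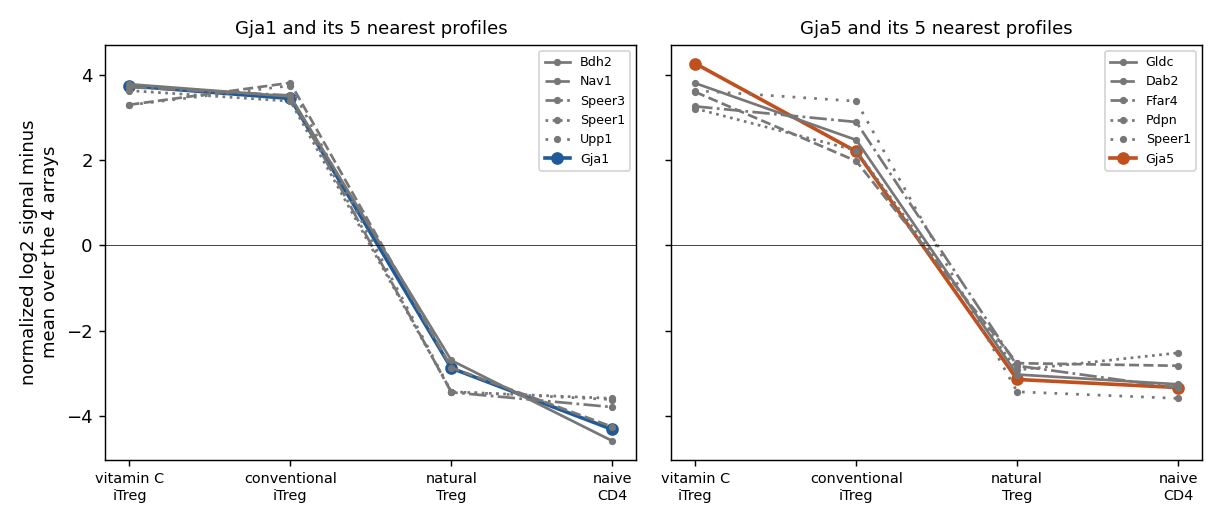
Normalized log2 signal minus its mean over the 4 arrays, for Gja1 (left) and Gja5 (right) in colour and their 5 nearest genes in grey. All lines are high on both iTreg arrays and low on both ex vivo arrays. Gja5 also steps down between vitamin C and conventional iTreg, as do Gldc, Dab2 and Pdpn and, by less, Ffar4 and Speer1. On the left, Nav1 and Upp1 step up between these arrays.

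Gja1 and Gja5 are known from endothelial, stromal and muscle cells, so markers of those cells were read on the same arrays. Of 9 endothelial markers with a probe, 2 were detected on vitamin C iTreg (Pecam1 and Egfl7), 3 on conventional iTreg (also Vwf), 1 on natural Treg and 1 on naive CD4 (Pecam1). Their summed normalized signal was 1879, 2105, 2541 and 3122 in that order, and most of it came from Pecam1, with log2 signals of 10.25, 10.44, 11.12 and 11.44. The defining markers Cdh5, Kdr, Tek and Tie1 were detected on no array. Egfl7 was higher in the iTreg, at least 4.82-fold in vitamin C iTreg and at least 5.44-fold in conventional iTreg over natural Treg.

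Of 11 fibroblast and smooth muscle markers, Thy1, which T cells also carry, was the only one detected, on all 4 arrays. Their summed signal was 40089, 31389, 19400 and 28516, and Col1a1, Col3a1, Pdgfrb and Acta2 were detected on none. The part of these marker genes in the connexin levels was not tested. None of 4 epithelial and none of 4 myeloid markers with a probe was detected on any array. The B cell gene Cd79b and the erythroid gene Hba-a1 were detected on both ex vivo arrays and on neither iTreg array. The other B cell markers with a probe, Ms4a1, Cd79a and Pax5, and the erythroid gene Alas2 were detected on no array. Of the CD8 T and NK markers, Cd8b1 was detected on all 4 arrays and Nkg7 on all but naive CD4. Cd8a, Klrb1c and Ncr1 were detected on none.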

How the data were processed

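Total RNA was labelled with biotin and read on Illumina bead arrays, 1 per group. The deposited table gave each probe's linear intensity with its detection p-value, per the file headers. GenomeStudio 2011.1 made them, per the submitters' processing notes, but any background subtraction there is not stated in the labels. The authors' second deposited table held log2 values, which were the quantile-normalized log2 of the intensity within 5e-07.

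Intensities were background-corrected and quantile-normalized with neqc (limma 3.58.1, R 4.3.3, offset 16, negative controls inferred from detection p-values), then handled in Python 3.11.15 with pandas 2.3.3 and numpy 2.4.6 and drawn with matplotlib 3.10.9. The normalization was tested on simulated arrays, with known changes in probes detected well above background. That test did not cover differences from background to bright signal, such as those of both connexins in iTreg over ex vivo cells. Quantile normalization hides a shift of most genes in 1 direction, and the offset pulls dim differences toward 0. The gene table named 23978 probes, and symbols were updated through RefSeq (GRCm38.p6), matching 23971. A gene was represented by its probe of highest mean log2, and compared where 1 of the 2 arrays detected it. A bound used the higher of the probe's own signal and the array's lowest detected signal, and became 0 if it ran against the array that detected the gene. The number of arrays limits the precision.

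The members, gene lists and the rule for named genes were chosen with earlier results of these data known. The rule took both connexins, every other connexin and pannexin on the array, the 4 genes of each other list that differed most in any comparison, and the 5 nearest profiles. The 7 alternatives were an offset of 50, no background correction, median centring, the authors' log2 values, a detection limit of 0.05, no use of detection or bounds, and the mean over a gene's probes. Promoter sequences are RefSeq's.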

Additional observations from a re-analysis of the deposited data

How the results depend on the processing

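No paired analysis was possible because each group had 1 array and the results come from no test. An alternative value was taken as moved when it left the main value by more than the within-gene SD between probes (0.149 to 0.330 log2), or by more than 1.5 times for a count. No difference of 2-fold or more between arrays changed direction for Gja1 or Gja5 under the 7 alternatives. A lower bound stops at 0, so where an alternative gave a bound, its direction could not change.

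Without background correction, Gja1 was 5.74 log2 higher in vitamin C iTreg and 5.45 in conventional iTreg over natural Treg, and at least 5.86 and 5.57 over naive CD4. Gja5 was at least 5.43 and 3.43 over natural Treg, and 5.27 and 3.27 over naive CD4. The authors' log2 values gave the same figures. An offset of 50 gave Gja1 6.24 and 5.95 over natural Treg and 6.41 and 6.12 over naive CD4, and Gja5 6.06 and 4.02, and 5.82 and 3.78. With detection p under 0.05 the bounds of Gja1 over naive CD4 were 7.58 in vitamin C iTreg, 7.28 in conventional iTreg and 0.97 in natural Treg. Those of Gja5 were 7.05 and 4.99 over natural Treg, and 6.98 and 4.92 over naive CD4. With no detection filter, Gja1 over naive CD4 was 8.04, 7.74 and 1.43 in vitamin C iTreg, conventional iTreg and natural Treg. Gja5 was then 7.39 and 5.33 over natural Treg, and 7.58 and 5.52 over naive CD4. Averaging the 3 Gja5 probes, 1 of them undetected, gave 1.60 between the iTreg arrays, at least 3.88 and 2.28 over natural Treg, and at least 3.55 and 1.94 over naive CD4.

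Without background correction, and with the authors' values, 34 genes reached 2-fold upward and 20 downward in vitamin C over conventional iTreg, against 73 and 63, and 85 were lower in natural Treg over naive CD4, against 154. With no detection filter 99 were lower in vitamin C over conventional iTreg. Of the connexin family, 1 gene in place of 2 was lower in vitamin C iTreg over natural Treg without background correction, with the authors' values and with median centring. With probes averaged, 1 in place of 2 was lower in conventional iTreg over natural Treg, and 0 in place of 1 higher in natural Treg over naive CD4. With no detection filter 2 were higher there, and 1 in place of 0 was lower in conventional iTreg over naive CD4. The causes were not tested. Without background correction, 2 of the 5 neighbours of Gja1 and 4 of the 5 of Gja5 stayed. Signals near background, as for Gja1 in natural Treg, limit each fold.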
